A study of Mus musculus with 3 samples.

Results

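Hepatic stellate cells from a mouse line lacking CD44 were compared with wild-type stellate cells across all genes that either library expressed. The comparison rests on 1 library of each genotype. Genes entered it when their level reached 1 FPKM (sequenced fragments, corrected for transcript length and sequencing depth) in at least 1 of the libraries compared, with a gene missing from a table set to 0. That rule kept 12247 genes, of 12371 that reached 1 FPKM in any library of the series and 17870 that any table lists. The series also holds another library, labelled TLR4-/- and called the TLR4-labelled library below, whose values are given beside the others as a description.

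All libraries came from male C57BL/6 mice aged 24 weeks with the genotypes wild type, CD44-/- or, for that library, TLR4-/-. Livers were perfused with collagenase and pronase, stellate cells were collected on a Nycodenz gradient, and macrophages were then removed with magnetic beads against CD11b, the product of Itgam. The cells spent 3 days in DMEM with 10% fetal bovine serum and 24 h without serum, so every library describes cultured cells. The labels give neither the knockout alleles nor whether animals were pooled. The series text speaks of triplicates, repeats TLR4-/- where CD44-/- would stand and names another sequencer than the labels' protocol. The genotypes used here are the sample labels', with 1 library each. No test was therefore possible, and 95% intervals below cover counting error only.

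Stellate cells are the pericytes of the liver sinusoid. They store retinoid at rest and turn into contractile, collagen-producing cells after injury or in culture. CD44 is a membrane glycoprotein that binds hyaluronan outside the cell and, inside it, the ezrin, radixin and moesin proteins that link membrane to actin. Macrophages and other leukocytes also carry CD44, which helps them to adhere and migrate. Kupffer cells, the resident macrophages of the liver, lie in the same sinusoids and are a known companion of stellate cell preparations.

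The label of the CD44-/- library was checked on the targeted gene first. Cd44 (Entrez 12505, chr2:102811141-102901669, mm10) stood at 17.2 FPKM in wild-type cells, 16.2 FPKM in the TLR4-labelled library and 2.57 FPKM in CD44-/- cells. The CD44-/- library was thus the low one, 6.71-fold below wild type (95% interval 5.88 to 7.68), with 253 reads left. Whether these reads come from outside a deleted part was not tested. Of 10 measured genes whose position lies within 1 Mb of Cd44, 1 passed 2-fold, where 4.21% of all compared genes lay 2-fold or more to either side. That gene was Fjx1, which was lower, a secreted protein of the four-jointed family, at 7.31 FPKM in wild-type cells, 8.89 FPKM in the TLR4-labelled library and 2.95 FPKM in CD44-/- cells.

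Stellate cell markers matched the label in both libraries. Lrat, which makes the retinyl esters stored by these cells, stood at 215 FPKM in wild-type cells, 150.4 FPKM in the TLR4-labelled library and 267 FPKM in CD44-/- cells. Reln, the secreted glycoprotein reelin, stood at 205, 250.4 and 306 FPKM in the same order. Pdgfrb, the receptor for platelet-derived growth factor, stood at 178, 158 and 173 FPKM. The 3 genes were high in every library. Of 19 measured genes of a stellate identity list, 1 was at least 2-fold higher in CD44-/- (Steap4), 0 were at least 2-fold lower, and the median log2 ratio was 0.19. Over all genes compared, 2.24% were at least 2-fold higher and 1.97% lower, so few past 2-fold is the common case.

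Across all 12247 genes, 274 (2.24%) lay 2-fold or more above wild type in CD44-/-, and 241 (1.97%) lay 2-fold or more below it. Both counts use the ratio of FPKM + 1, which understates the change of low genes. The median log2 ratio was 0.03, 54.65% of genes lay above 0, and 87.02% lay within 0.5 of 0 on the log2 scale. These shares are the background for the counts on single lists. Summed expected counts were 24078669 in wild type and 21460725 in CD44-/-, which puts 3 reads at 0.125 and 0.140 CPM, counts scaled to the library total. The share of genes past 2-fold was smaller at higher levels up to 50 FPKM. Below a mean of 2 FPKM, 5.72% were higher and 4.72% lower, and between 20 and 50 FPKM 0.825% were higher and 0.956% lower. From 100 to 200 FPKM the lower genes were the more numerous, at 2.92% against 1.59% higher.

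**Figure D1:**
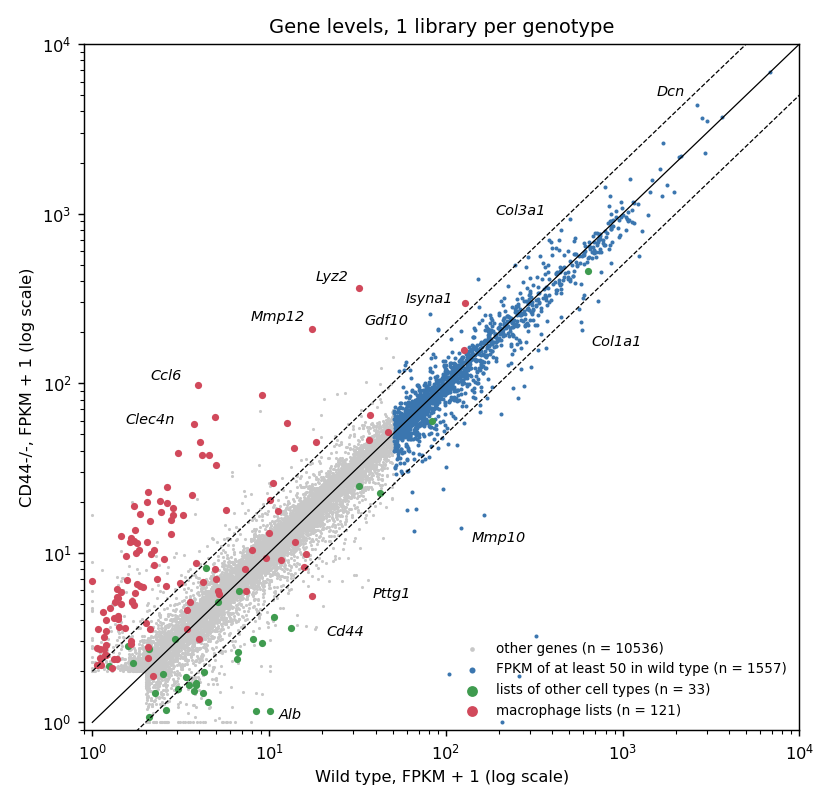
Each point is 1 of the 12247 genes, with its level (FPKM + 1, log scale) in wild type on the x axis and in CD44-/- on the y axis, 1 library each. The solid line marks equal levels and the dashed lines 2-fold. Genes of the macrophage lists (red) lie mostly above the upper dashed line at low wild-type levels, while genes at 50 FPKM or more in wild type (blue) lie mostly within the lines.

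**Figure D2:**
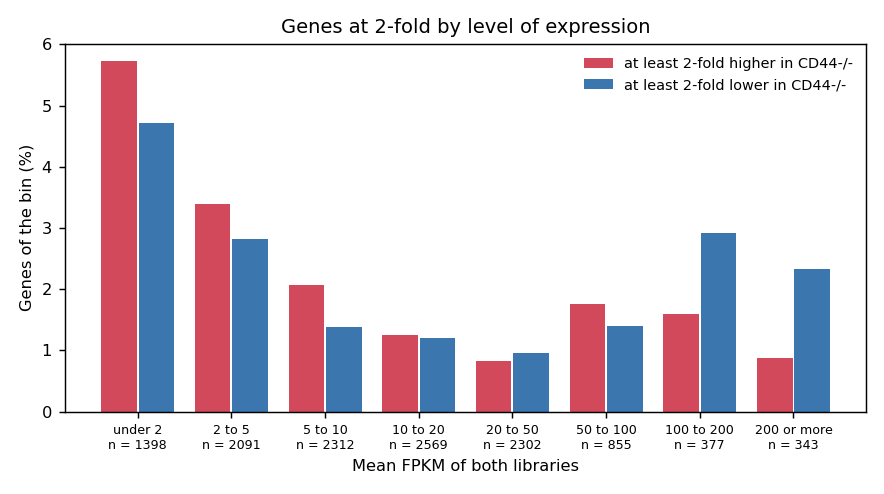
Bars give the share of genes at least 2-fold higher (red) or lower (blue) in CD44-/- in 8 bins of mean FPKM, with the number of genes under each bin. Both shares are largest below 2 FPKM, at 5.72% and 4.72%, and the lower genes outnumber the higher ones from 100 FPKM up.

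The genes past 2-fold differed in kind between the directions. Of the 274 higher genes, 85 (31.02%) stood on lists of macrophage genes, 9 (3.29%) were at 50 FPKM or more in wild type, and 0 stood on lists of other liver or blood cells. Of the 241 lower genes, 1 stood on a macrophage list, 36 (14.9%) were at 50 FPKM or more in wild type, and 16 (6.64%) stood on lists of other cells. Of all 12247 genes, 121 stood on macrophage lists and 33 on lists of other cells. A further 1557 were at 50 FPKM or more in wild type. Setting that level by wild type favours lower genes. With the mean of both libraries in its place, 21 such genes were higher and 31 lower. The median level of the higher genes was 1.06 FPKM in wild-type cells and 6.89 FPKM in CD44-/- cells. The lower genes had medians of 7.31 FPKM and 1.79 FPKM in the same order. Low reads limit part of both sets: 43 of the higher and 45 of the lower genes had under 50 reads in the library where they were higher. The counting interval stayed clear of 1 in 252 of the higher and 209 of the lower genes.

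Macrophage genes were the most numerous of the classes set apart among the higher genes, and 180 (65.7%) of the 274 were in none of these classes. The lists hold 184 genes, of which 121 were measured. Of these, 85 (70.25%) were at least 2-fold higher in CD44-/-, 1 was at least 2-fold lower, and the median log2 ratio was 1.62, beside 0.03 over all genes. Of the 121, 69 reached 1 FPKM in wild type and 120 in CD44-/-, so many were measured only through the library where they were high. The count and median are partly set by that. The lists were also chosen with earlier results of these data known, which may favour such genes. The same limits hold for the counts and medians of the single macrophage lists below, which stand beside 2.24% higher over all genes. Of the 68 that reached 1 FPKM in both libraries, 40 were at least 2-fold higher and 1 lower, with a median of 1.30, beside 1.24% and 1.23% of the 11514 genes that reached it in both. The FPKM of all 184 listed genes summed to 735 in wild-type cells, 513 in the TLR4-labelled library and 2591 in CD44-/- cells. That is 0.168%, 0.117% and 0.597% of all FPKM. The CD44-/- library was the high one of the 3, and its sum was still under 1% of the total. More macrophages and more RNA per macrophage cannot be told apart in bulk samples, and the labels give no cell numbers.

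Genes that define the myeloid lineage were among those higher. Spi1, the PU.1 transcription factor needed for macrophage development, stood at 1.04 FPKM in wild-type cells, 0.35 FPKM in the TLR4-labelled library and 10.6 FPKM in CD44-/- cells, 10.2-fold (7.11 to 15.1). Csf1r, the receptor for the macrophage growth factor CSF1, stood at 1.78, 1.09 and 14.6 FPKM, 8.22-fold (6.99 to 9.73). Both were highest in CD44-/- and lowest in the TLR4-labelled library. Ptprc, the leukocyte phosphatase CD45, stood at 0.2, 0.08 and 1.87 FPKM. Itgam, which encodes the CD11b used for bead depletion, stood at 0.37, 0.06 and 5.09 FPKM, 13.8-fold (10.04 to 19.3). Of 9 measured myeloid transcription factors and colony-stimulating factor receptors 5 were at least 2-fold higher, with a median of 1.04. The 2-fold mark was also passed by 15 of 21 genes of leukocyte signalling, whose median was 1.26. Of these 21 genes, 9 reached 1 FPKM in wild type. Tfec, a transcription factor of the MITF family, went the other way, at 14.7 FPKM in wild-type cells and 7.29 FPKM in CD44-/- cells, with a log2 ratio of -0.92. Irf8 and Nr1h3, on the same list as Tfec, were near equal. They stood at 6.32 and 4.19 FPKM in wild-type cells and 7.03 and 4.69 FPKM in CD44-/- cells. Hcls1, on the leukocyte signalling list, was somewhat lower, at 13.05 FPKM in wild-type cells and 10.65 FPKM in CD44-/- cells.

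Surface receptors and lysosomal markers of macrophages gave larger differences. Among 18 measured macrophage markers, 16 passed 2-fold upward, with a median of 2.42. In wild type 13 of the 18 reached 1 FPKM. Lyz2, the macrophage lysozyme, was at 31.4 FPKM in wild-type cells, 11.1 FPKM in the TLR4-labelled library and 362 FPKM in CD44-/- cells. Adgre1, the F4/80 antigen, was at 0.45, 0.31 and 11.5 FPKM. Ctss, a cysteine protease of antigen-presenting cells, was at 8.1, 2.46 and 83.9 FPKM. All 3 were lowest in the TLR4-labelled library and highest in CD44-/-. The exceptions were Mertk, a receptor for the clearance of dead cells, at 15.2, 11.9 and 8.83 FPKM, and Mrc1, the mannose receptor, at 3.99, 0.23 and 6.02 FPKM. Sinusoidal endothelial cells are known to make Mrc1 as well.

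Kupffer cell markers were split by what was measured. Of 10 listed genes 6 reached 1 FPKM in CD44-/- and 3 in wild type. Of the 6, 4 were at least 2-fold higher, with a median of 1.95. Cd5l, a secreted protein of tissue macrophages, stood at 1.06 FPKM in wild-type cells, 0.6 FPKM in the TLR4-labelled library and 21.8 FPKM in CD44-/- cells. Folr2, a folate receptor, stood at 1.12, 0.9 and 14.4 FPKM, and Vsig4, a complement receptor, at 0.26, 0.06 and 3.71 FPKM. Slc40a1, the iron exporter ferroportin, was close in all libraries, at 45.9, 53.2 and 50.8 FPKM. Clec4f, a lectin that marks Kupffer cells in mice, and Cd163 stayed under 1 FPKM in wild-type cells and CD44-/-, and Timd4 was listed in neither.

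Receptors that sense microbes and debris followed the same direction. Of 5 measured C-type lectins 4 were at least 2-fold higher (median 2.69), and 11 of 18 Fc and immunoglobulin-like receptors were at least 2-fold higher (median 1.59). In wild type 3 of the 5 lectins and 11 of the 18 receptors reached 1 FPKM. Clec7a, the beta-glucan receptor dectin-1, stood at 3.06 FPKM in wild-type cells, 1.02 FPKM in the TLR4-labelled library and 44.1 FPKM in CD44-/- cells. Clec4n, dectin-2, stood at 2.78, 0.86 and 56.2 FPKM, 20.2-fold (16.1 to 25.7). Siglec1, a sialic acid receptor of macrophages, had the largest ratio of the macrophage genes higher in CD44-/- with at least 50 reads, 36.6-fold (20.2 to 73.9), at 0.07, 0.07 and 2.56 FPKM. The 82 such genes ran from 2.17-fold (Csf2ra) to that value, with quartiles of 6.58, 10.25 and 14.3, and 44 were at least 10-fold higher. Fcgr2b, the inhibitory Fc receptor, was the 1 lower gene, at 16.5, 0.51 and 4.54 FPKM. It is also abundant in sinusoidal endothelial cells.

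Secreted products and the phagocyte oxidase completed the block. Ccl6, a chemokine of myeloid cells, stood at 2.95 FPKM in wild-type cells, 0.65 FPKM in the TLR4-labelled library and 96.6 FPKM in CD44-/- cells, 32.8-fold (26.9 to 40.3). C1qa, a chain of the complement starter C1q, stood at 0.63, 0.08 and 10.6 FPKM, and Cybb, the catalytic subunit of the oxidase, at 0.85, 0.26 and 15.98 FPKM. These were again highest in CD44-/-. At least 2-fold higher were 8 of 10 measured chemokines and cytokines (median 1.68), 5 of 7 secreted enzymes and inhibitors (2.36), 3 of 4 genes of C1q and properdin (2.36), 7 of 9 genes of the oxidase and lipid mediators (1.70) and 3 of 4 other Toll-like receptors (1.28). In wild type 1 FPKM was reached by 5, 5, 2, 2 and 2 of the measured genes of these lists, in the same order. Chemoattractant and purine receptors had a smaller median, 0.38, with 3 of 7 at least 2-fold higher. In wild type 4 of these 7 reached 1 FPKM. The higher genes C3ar1, C5ar1 and Ccr1 stood there at 0.39, 0.4 and 0.2 FPKM. Of the MHC class II list 3 of 8 genes were measured and 1 was at least 2-fold higher, Cd74, the invariant chain, at 0.71, 0 and 3.95 FPKM. The others were not, H2-DMa at 3.02, 2.44 and 2.12 FPKM and H2-DMb1 at 2.45, 0.77 and 2.57 FPKM. The list's median was 0.05, and 2 of its genes reached 1 FPKM in wild type. H2-DMb2 was listed in neither library.

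Some macrophage-list genes were already well expressed in wild type. There were 16 at 10 FPKM or more in that library, of which 6 were at least 2-fold higher in CD44-/- and 1 lower. Gpnmb, a glycoprotein of lysosomes and macrophages, stood at 127.8 FPKM in wild-type cells, 88.2 FPKM in the TLR4-labelled library and 296 FPKM in CD44-/- cells, 2.32-fold (2.27 to 2.37). Cyba, the membrane partner of the oxidase, was closer, at 124.8, 93.7 and 155.7 FPKM, 1.25-fold (1.18 to 1.32). Sirpa, a receptor for CD47, was at 35.6, 16.8 and 45.0 FPKM. Lyz2, Lilrb4a, Lilr4b, Fcgr3, Il1rn, Cd74 and Csf2ra have expected counts that are not whole, so part of their reads is shared with similar genes and their values are uncertain.

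**Figure D3:**
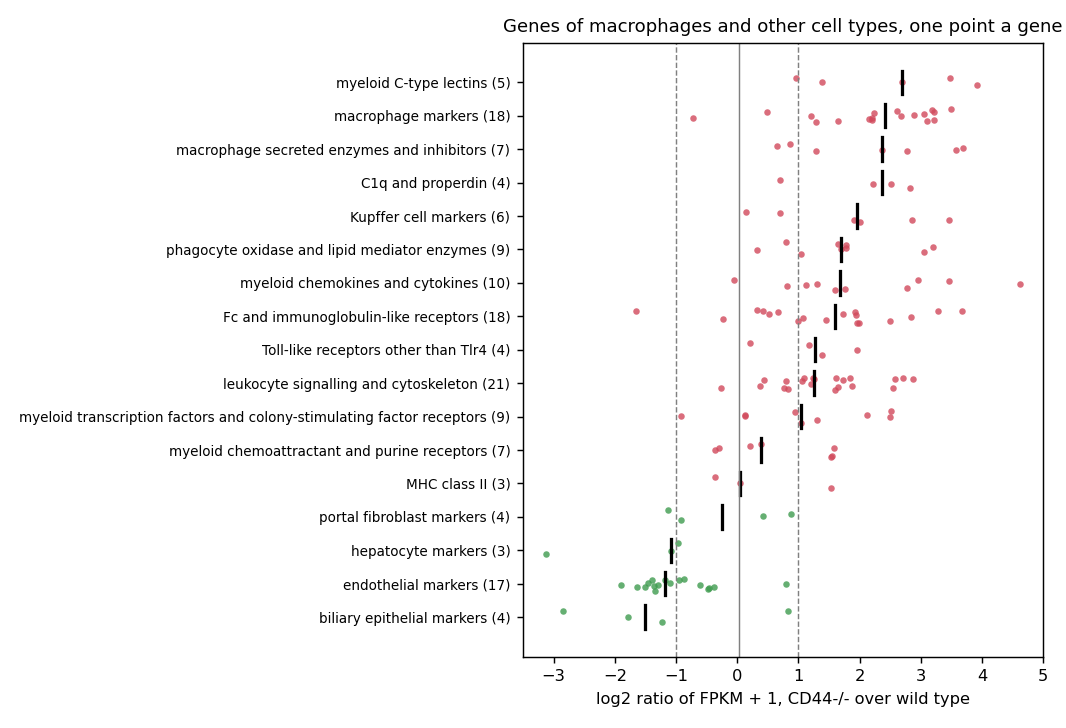
Each point is a measured gene of a macrophage list (red) or of a list of another cell type (green), placed by its log2 ratio of FPKM + 1, CD44-/- over wild type, 1 library each. Numbers of genes follow the list names, black bars are list medians, the dashed lines mark 2-fold and the grey line the median of all genes, 0.03. Medians of the macrophage lists run from 0.05 for MHC class II to 2.69 for the C-type lectins, and those of the other cells shown lie below 0.

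Markers of other cell types did not share that direction. Of 33 measured genes, 16 were at least 2-fold lower in CD44-/- and 0 higher, with a median of -0.97. Over all genes 1.97% were at least 2-fold lower. Of the 33, 30 reached 1 FPKM in wild type and 18 in CD44-/-, so this count too is partly set by how the genes were measured. Of the 15 that reached 1 FPKM in both, 6 were at least 2-fold lower and 0 higher, with a median of -0.48, beside 1.23% lower of all genes that reached it in both. Cdh5, the junctional cadherin of endothelium, stood at 12.3 FPKM in wild-type cells, 0.91 FPKM in the TLR4-labelled library and 2.58 FPKM in CD44-/- cells, 4.77-fold lower (4.13 to 5.53). Pecam1, the adhesion molecule CD31, stood at 8.09, 0.37 and 1.92 FPKM. Wild type was the high library for both. Of 17 measured endothelial markers 10 were at least 2-fold lower, with a median of -1.18. The FPKM of all 20 listed endothelial markers summed to 815 in wild type, 464 in the TLR4-labelled library and 559.9 in CD44-/-. Most of that sum is Eng, the TGF-beta co-receptor endoglin, at 633, 388 and 457 FPKM, which stellate cells also express.

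Hepatocyte and biliary epithelial markers were low everywhere, and their summed level was lowest in CD44-/-. Alb, serum albumin, stood at 9.14 FPKM in wild-type cells, 1.22 FPKM in the TLR4-labelled library and 0.16 FPKM in CD44-/- cells. Krt18, an epithelial keratin, stood at 7.43, 0.79 and 0.17 FPKM. Summed FPKM was 16.5, 4.52 and 2.85 for the hepatocyte list and 14.8, 5.32 and 3.41 for the biliary list. Sox9, a biliary transcription factor, went the other way, at 0.59, 1.76 and 1.82 FPKM. Portal fibroblast markers lay on both sides: of 4 measured, 1 was at least 2-fold lower, Thy1, at 1.62, 0.12 and 0.19 FPKM, while Entpd2, an ectonucleotidase, was at 3.38, 2.67 and 7.09 FPKM and Cd34 at 0.69, 0.69 and 1.25 FPKM. None of the measured neutrophil, dendritic or mesothelial markers passed 2-fold, and 0 genes of the T and NK, B and red cell lists reached 1 FPKM in either library. Over all genes 4.21% passed 2-fold to either side. What part these cells play in the differences of other genes was not tested.

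Neighbouring genes on chromosome 9 lay on opposite sides. The matrix metalloproteinase cluster there (chr9:7272514-7581885) holds 6 measured genes. Mmp12, the macrophage elastase, stood at 16.6 FPKM in wild-type cells, 4.03 FPKM in the TLR4-labelled library and 209 FPKM in CD44-/- cells, 12.6-fold higher (11.9 to 13.3). Mmp10, stromelysin-2, stood at 120.7, 49.2 and 13.1 FPKM, 9.24-fold lower (8.42 to 10.2). Mmp3, stromelysin-1, stood at 598, 387 and 319 FPKM, 1.88-fold lower (1.84 to 1.92). Mmp1b, a collagenase-like gene, was at 1.66, 1.56 and 0.31 FPKM, with reads partly shared. Mmp13, the main interstitial collagenase of mice, was at 20.7, 17.5 and 26.5 FPKM and Mmp27 at 2.73, 3.47 and 3.00 FPKM, both nearer to equal. Mmp10 and Mmp3 are similar genes and have expected counts that are not whole.

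The promoters of Mmp12, Mmp10 and Mmp3 are shown because these neighbours differed in opposite directions, and that of Ctss, described above, as a further macrophage-list gene. The sequences are RefSeq's for GRCm38.p6, the build that mm10 names, on the plus strand from 250 bases before to 50 bases after the gene start: chr9:7344147-7344446 for Mmp12, chr9:7502092-7502391 for Mmp10, chr9:7445572-7445871 for Mmp3 and chr3:95526536-95526835 for Ctss. Capitals mark a match to GAGGAAG, the core letters of many PU.1 sites, or to TGACTCA, those of AP-1 sites, on either strand.
Mmp12: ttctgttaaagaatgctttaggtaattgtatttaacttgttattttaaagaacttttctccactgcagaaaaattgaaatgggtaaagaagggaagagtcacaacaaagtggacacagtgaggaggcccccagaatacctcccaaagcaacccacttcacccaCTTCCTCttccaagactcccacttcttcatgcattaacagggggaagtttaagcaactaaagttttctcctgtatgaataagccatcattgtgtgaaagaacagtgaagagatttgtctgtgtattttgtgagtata
Mmp10: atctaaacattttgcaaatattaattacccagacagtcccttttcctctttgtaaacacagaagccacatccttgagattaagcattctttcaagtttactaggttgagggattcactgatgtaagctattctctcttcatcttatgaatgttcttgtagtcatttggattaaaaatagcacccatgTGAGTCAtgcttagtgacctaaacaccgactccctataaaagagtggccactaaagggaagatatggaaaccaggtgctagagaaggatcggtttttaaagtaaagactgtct
Mmp3: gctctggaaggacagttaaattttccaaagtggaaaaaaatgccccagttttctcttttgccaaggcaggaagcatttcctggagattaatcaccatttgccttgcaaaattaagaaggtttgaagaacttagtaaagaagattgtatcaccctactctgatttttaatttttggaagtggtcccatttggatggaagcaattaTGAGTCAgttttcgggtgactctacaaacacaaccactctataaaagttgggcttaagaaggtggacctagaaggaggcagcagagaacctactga
Ctss: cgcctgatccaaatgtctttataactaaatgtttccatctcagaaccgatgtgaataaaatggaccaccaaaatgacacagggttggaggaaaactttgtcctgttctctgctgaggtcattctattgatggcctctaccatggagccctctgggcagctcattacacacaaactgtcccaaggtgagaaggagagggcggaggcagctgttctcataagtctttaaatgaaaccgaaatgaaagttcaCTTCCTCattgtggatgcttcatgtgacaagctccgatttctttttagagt

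The PU.1-type letters start 87 bases before the gene start in Mmp12 and 1 base before it in Ctss, on the minus strand in both. The AP-1 letters start 63 bases before the gene start in Mmp10 and 46 bases before it in Mmp3. GAGGAAG was present in 39.3% of the 61 promoters found for macrophage-list genes at least 2-fold higher, beside 13% of the 9678 promoters found for compared genes and 13.5% of all 27025. TGACTCA was present in 7.58% of the 66 promoters found for lower genes at 10 FPKM or more in wild type, beside 3.47% of compared genes and 5.17% of all. It was present in 11.5% of the promoters of the higher macrophage-list genes. All searches used 1 RefSeq start per gene, which need not be the outermost, and covered both strands, and matches of different motifs may overlap. A match describes the letters only.

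Other gene clusters lay on 1 side. Their spans were set by chosen chemokine and lectin genes. Many of their genes also stand on the macrophage lists or among the inflammatory genes below, so these counts repeat them. Over all genes 2.24% were at least 2-fold higher. On chromosome 11, 2 of 3 measured chemokine genes at chr11:82035577-82116799 were at least 2-fold higher in CD44-/-, Ccl2 and Ccl7, and 5 of 6 measured genes at chr11:83572917-83706269. In the second group were Ccl3, at 0.75 FPKM in wild-type cells, 0.27 FPKM in the TLR4-labelled library and 12.6 FPKM in CD44-/- cells, and Wfdc17, a small secreted protein, at 3.91, 1.48 and 62.4 FPKM. Ccl4 had no read in wild type, 0.07 FPKM in the TLR4-labelled library and 5.82 FPKM in CD44-/- cells, at least 30.3-fold higher against a floor of 3 reads in wild type. On chromosome 5, 4 of 5 measured genes at chr5:90759298-90905938 were at least 2-fold higher, among them Cxcl1 at 6.25, 4.84 and 22 FPKM and Pf4 at 9.46, 12.2 and 24.7 FPKM. On chromosome 6, 2 of 3 genes of the Clec4 cluster (chr6:123229843-123289871) were at least 2-fold higher, Clec4n and Clec4d.

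Inflammatory genes that stellate cells themselves can make were mixed. Of 20 measured, 8 were at least 2-fold higher and 2 lower, with a median of 0.71, beside 2.24% higher and 1.97% lower over all genes. Ccl2, the monocyte chemoattractant, stood at 49.4 FPKM in wild-type cells, 18.4 FPKM in the TLR4-labelled library and 141 FPKM in CD44-/- cells, 2.85-fold (2.64 to 3.08). Vcam1, a leukocyte adhesion molecule, stood at 34.5, 60.8 and 100.1 FPKM, and Lcn2, an iron-sequestering lipocalin, at 42.2, 3.82 and 121.6 FPKM. CD44-/- was highest in each, while the order of the other libraries varied. Ptgs2, inducible cyclooxygenase, stood at 7.17, 2.4 and 1.86 FPKM. Interferon-stimulated genes had a median of 0.45 with 20 of 21 above 0, beside 54.65% of all genes. The 1 past 2-fold was Xaf1, at 5.18, 5.26 and 27.5 FPKM with part of its reads shared. The macrophage genes are higher in the same library, and their part in these values was not tested.

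Complement genes, listed after the values were seen, lay mostly above wild type. Of 24 measured, 12 were at least 2-fold higher and 0 lower, with a median of 0.97, beside 2.24% higher over all genes. Of the 24, 17 reached 1 FPKM in wild type and 24 in CD44-/-, so this count and median are partly set by how the genes were measured. Some of the 24 also stand on the macrophage lists. Cfb, factor B of the alternative pathway, stood at 19.5 FPKM in wild-type cells, 9.05 FPKM in the TLR4-labelled library and 80.1 FPKM in CD44-/- cells, 4.10-fold (3.86 to 4.36). C4b, a component of the classical pathway, stood at 18.7, 12.9 and 63.9 FPKM, 3.42-fold (3.27 to 3.58). C3, the central component, was low in all, at 0.69, 0.33 and 4.21 FPKM. MHC class I genes, also listed afterwards, had a median of 0.48 over 20 genes, with 2 at least 2-fold higher and 1 lower. Their FPKM summed to 3660.2 in wild type, 3415 in the TLR4-labelled library and 5936 in CD44-/-, and H2-K1 and H2-D1 made up much of it, at 501 and 789 FPKM in wild-type cells and 931 and 1439 FPKM in CD44-/- cells. These genes share reads.

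Genes at a high level in wild-type cells, set apart from the macrophage and other cell lists, were mostly close between the libraries. There were 1557 with at least 50 FPKM in wild-type cells. Of these 9 (0.578%) were at least 2-fold higher in CD44-/-, 36 (2.31%) at least 2-fold lower, and 88.18% lay within 0.5 of 0 on the log2 scale, with a median of -0.03. Over all genes these shares were 2.24%, 1.97% and 87.02% in the same order. The 1557 genes held 68.9% of all FPKM in wild type, 68.1% in the TLR4-labelled library and 67.5% in CD44-/-. Without predicted genes and genes with shared reads, 7 of 1311 were higher and 27 lower. The choice of wild type as the library that sets the level favours genes that are lower in CD44-/-: with the mean of both libraries in its place, 21 were higher and 31 lower. Among the most abundant genes, Ftl1, the ferritin light chain, stood at 6808 FPKM in wild-type cells, 5827 FPKM in the TLR4-labelled library and 6818 FPKM in CD44-/- cells. Eef1a1, the translation elongation factor, stood at 3661, 3832 and 3723 FPKM.

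The high-level genes furthest below wild type included secreted proteins, matrix proteins and enzymes. Mmp10, described above, was 1 of them. Cyp26b1, which breaks down retinoic acid, stood at 64.7 FPKM in wild-type cells, 19.4 FPKM in the TLR4-labelled library and 12.5 FPKM in CD44-/- cells, 5.17-fold lower (4.87 to 5.49). Angptl4, a secreted inhibitor of lipoprotein lipase, stood at 67.1, 19.8 and 17.2 FPKM, 3.90-fold lower (3.59 to 4.24). Cck, the peptide hormone cholecystokinin, stood at 59.2, 24.6 and 16.9 FPKM, 3.49-fold lower (3.03 to 4.03). For these the TLR4-labelled library was also well below wild type.

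For another group the TLR4-labelled library stayed near wild type. Thbd, the anticoagulant receptor thrombomodulin, stood at 255 FPKM in wild-type cells, 228 FPKM in that library and 80.4 FPKM in CD44-/- cells, 3.18-fold lower (3.09 to 3.27). Mmd, a membrane protein of the PAQR family, stood at 276, 290.2 and 95.3 FPKM, 2.90-fold lower (2.81 to 2.98). Ccnd1, the G1 cyclin D1, stood at 98.5, 78.1 and 31.0 FPKM, 3.18-fold lower (3.04 to 3.32). In each of the 3 the CD44-/- library stood alone at the low end. Lrrc32, which tethers latent TGF-beta to the cell surface, stood at 562, 505 and 271 FPKM. Spp1, the matrix cytokine osteopontin and a ligand of CD44, stood at 125.2, 125.9 and 57.4 FPKM. Spon2, a spondin of the matrix, lay between, at 205, 106.5 and 64.5 FPKM.

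High-level genes above wild type were fewer. Isyna1, which makes inositol phosphate from glucose 6-phosphate, stood at 80.8 FPKM in wild-type cells, 43.9 FPKM in the TLR4-labelled library and 255 FPKM in CD44-/- cells, 3.16-fold higher (3.04 to 3.28). Gdf2, the circulating ligand BMP9 that stellate cells secrete, stood at 89.2, 102.8 and 207 FPKM, 2.32-fold (2.25 to 2.39). Steap4, a metalloreductase, stood at 89.6, 46.3 and 205 FPKM, 2.29-fold (2.22 to 2.35). All 3 were highest in CD44-/-. Hpse, the heparan sulfate-cleaving heparanase, and Tnfrsf11b, the decoy receptor osteoprotegerin, were 2.18-fold (2.10 to 2.27) and 2.08-fold (2.00 to 2.16) higher. Lgals3, galectin-3, stood at 58.5, 48.2 and 131.6 FPKM, and macrophages are known to make it at high level. Scarb2, the lysosomal membrane protein LIMP-2, was high in both knockout-labelled libraries, at 246, 457 and 496 FPKM.

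Some extreme values sit in pairs of near-identical copies, for which summed levels are given. Atp6v0c-ps2 stood at 259 FPKM in wild-type cells and 0.88 FPKM in CD44-/- cells, while its parent Atp6v0c, a proton pump subunit, stood at 151.7 and 411 FPKM. Their summed level was 460.4 CPM in wild type and 466 CPM in CD44-/-, so the pair did not differ as its members did. Hmga1 and Hmga1b summed to 269 and 219 CPM. For Hmga2, a chromatin protein of proliferating and mesenchymal cells, the low value remained with its copy included, at 179 CPM in wild type, 150.5 in the TLR4-labelled library and 30.8 in CD44-/-. Prl2c2 and Prl2c3, which encode proliferin, summed to 129.0, 68.6 and 36.1 CPM.

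**Figure D4:**
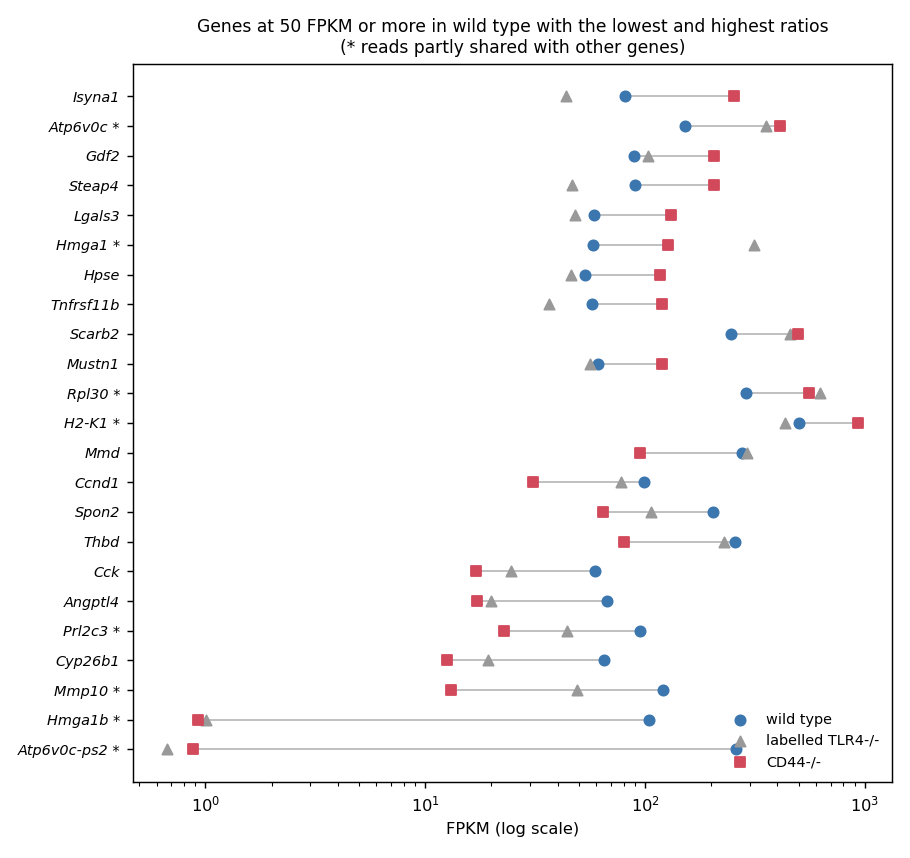
For the high-level genes with the 12 highest and the lowest ratios, markers give FPKM (log scale) in wild type (circles), the TLR4-labelled library (triangles) and CD44-/- (squares), 1 library each, and a line joins wild type to CD44-/-. 1 gene is not shown. Names with an asterisk have reads shared with other genes. Isyna1 is at the top with 80.8 and 255 FPKM, and Mmp10 near the bottom with 120.7 and 13.1 FPKM.

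Fibrillar collagens lay on both sides of wild type. Of 8 measured 1 was at least 2-fold lower and 0 higher, with a median of -0.23. Over all genes 1.97% were at least 2-fold lower and 2.24% higher. Col1a1, the alpha-1 chain of type I collagen, stood at 588 FPKM in wild-type cells, 358 FPKM in the TLR4-labelled library and 205 FPKM in CD44-/- cells, 2.87-fold lower (2.83 to 2.92). Its partner chain Col1a2 stood at 186, 158 and 175 FPKM, 1.07-fold lower (1.05 to 1.09). Col3a1, the chain of type III collagen, stood at 384, 246 and 696 FPKM, 1.81-fold higher (1.79 to 1.83). The 3 genes thus had 3 different orders of the libraries. Col4a1, a basement membrane collagen, stood at 1154, 1264 and 879 FPKM.

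The rest of the matrix was close to wild type on most lists, as were most genes compared. No laminin or nidogen gene (10 measured) and no small leucine-rich proteoglycan (9 measured) passed 2-fold, with medians of 0.03 and 0.10. Over all genes only 4.21% passed 2-fold to either side. Dcn, decorin, which binds collagen fibrils, stood at 2614 FPKM in wild-type cells, 2951 FPKM in the TLR4-labelled library and 4337 FPKM in CD44-/- cells, 1.66-fold higher (1.65 to 1.67). Of 16 matrix glycoproteins 3 were at least 2-fold lower: Spp1, Postn and Cthrc1. Postn, periostin, stood at 238, 123.9 and 92.5 FPKM, and Cthrc1, a secreted protein of activated fibroblasts, at 2.79, 0.11 and 0.08 FPKM. Elastic fibre genes went both ways: Eln, elastin, stood at 3.46, 1.81 and 9.91 FPKM and Ltbp1, which binds latent TGF-beta, at 31.5, 19.5 and 9.72 FPKM. Of 19 collagen processing genes 1 was at least 2-fold lower, Lox, a collagen cross-linking oxidase, at 41.5, 40.5 and 18.6 FPKM, and Loxl1 stood just short of that, at 12.9, 13.04 and 6.08 FPKM.

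**Figure D5:**
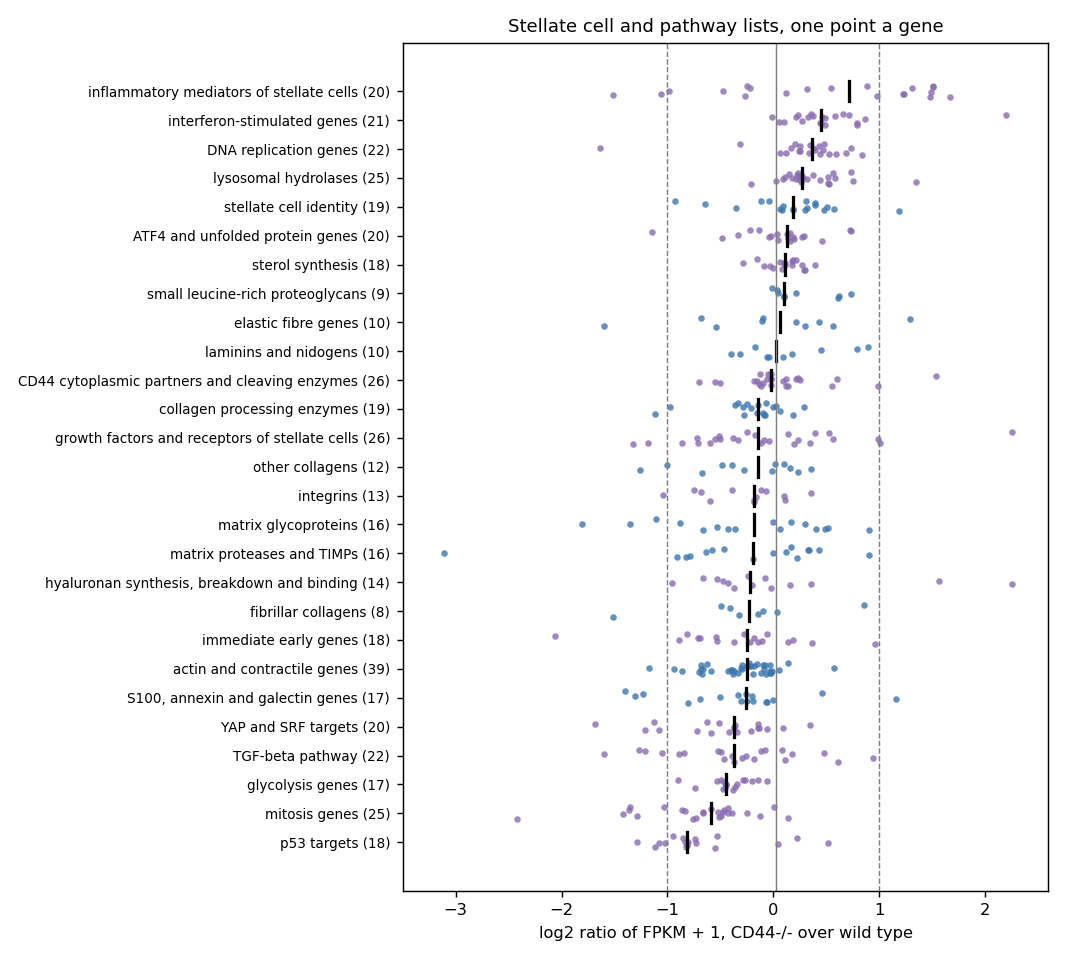
Each point is a measured gene of a stellate cell list (blue) or pathway list (purple), placed by its log2 ratio of FPKM + 1, CD44-/- over wild type, 1 library each. Black bars are list medians, the dashed lines mark 2-fold and the grey line the median of all genes, 0.03. 1 gene is not shown but enters the medians. Medians run from -0.82 for the p53 targets to 0.71 for the inflammatory mediators.

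Most contractile genes lay a little below wild type. Of 39 measured, 36 lay below 0 and 1 was at least 2-fold lower, with a median of -0.25. Over all genes 1.97% were at least 2-fold lower. Over all high-level genes the median was -0.03, and 43.2% lay above 0. Tagln, the smooth muscle protein transgelin, stood at 601 FPKM in wild-type cells, 515 FPKM in the TLR4-labelled library and 329.9 FPKM in CD44-/- cells, 1.82-fold lower (1.78 to 1.86). Acta2, smooth muscle actin, stood at 235, 81.5 and 148 FPKM, 1.59-fold lower (1.54 to 1.63). Acta2 was lowest in the TLR4-labelled library and Tagln in CD44-/-. A list of YAP and SRF targets, which also holds the regulators Yap1, Wwtr1, Tead1, Srf and Mkl1, had a median of -0.37. Of its 20 genes 4 were at least 2-fold lower. Among them were Ankrd1, a mechanically induced muscle protein, at 264, 131.1 and 120.1 FPKM, and F3, tissue factor, at 20.7, 11.8 and 5.78 FPKM. GGAATG, the letters of TEAD sites, was present in 39.4% of 33 promoters found for contractile genes, beside 13.6% of the 66 for lower genes, 11.7% of compared genes and 14.6% of all. The CArG box of SRF was present in 12.1%, 4.55%, 1.29% and 1.57% in the same order.

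The TGF-beta pathway list held 23 measured genes, 5 at least 2-fold lower and 0 higher, around a median of -0.37. Over all genes 1.97% were at least 2-fold lower. Ccn2, connective tissue growth factor and a target of both TGF-beta and YAP, stood at 369 FPKM in wild-type cells, 142 FPKM in the TLR4-labelled library and 159 FPKM in CD44-/- cells, 2.32-fold lower (2.26 to 2.38). Inhba, the activin A subunit, stood at 19.9, 14.6 and 7.68 FPKM. CD44-/- was lower than wild type in both. Ltbp1 and Lrrc32, given above, are further members. Of 26 growth factors and receptors 2 were at least 2-fold higher and 2 lower: Igf1, insulin-like growth factor, at 0.49, 0.36 and 6.13 FPKM and Igfbp4 were higher, and Vegfa, the endothelial growth factor, at 29.8, 26.3 and 11.3 FPKM, and Bdnf were lower. Macrophages are known to make Igf1.

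Genes that act with CD44 were near wild type, as were most genes compared. Of 26 measured partners and cleaving enzymes 1 was at least 2-fold higher (Cd74, a macrophage-list gene) and 0 lower, with a median of -0.02. That count is near the share over all genes, 4.21% past 2-fold to either side. Msn, moesin, stood at 261 FPKM in wild-type cells, 299.9 FPKM in the TLR4-labelled library and 251 FPKM in CD44-/- cells. Ezr, ezrin, stood at 10.4, 10.6 and 9.65 FPKM, and Rdx, radixin, at 80.0, 66.9 and 121.8 FPKM. Of the 3 membrane-actin linkers radixin was the one furthest from wild type, at 1.52-fold (1.48 to 1.57). The proteases Adam10 and Mmp14, which cut CD44 at the cell surface, were at 35.1 and 116 FPKM in wild-type cells and 41.0 and 127 FPKM in CD44-/- cells. Among 14 measured genes that make, degrade or bind hyaluronan 2 were at least 2-fold higher, with a median of -0.22. These were Itih3 and Itih4, heavy chains of serum inter-alpha-inhibitor, at 2.28 and 1.21 FPKM in wild-type cells and 8.68 and 9.57 FPKM in CD44-/- cells. Hmmr, the hyaluronan receptor RHAMM that is also made in mitosis, stood at 7.52, 4.67 and 5.15 FPKM.

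Cell cycle lists split by phase. Of 25 measured mitosis genes 6 were at least 2-fold lower and 23 lay below 0, with a median of -0.58. Over all genes 1.97% were at least 2-fold lower, and 54.65% lay above 0. Pttg1, securin, which holds back the separation of sister chromatids, stood at 32.5 FPKM in wild-type cells, 29.5 FPKM in the TLR4-labelled library and 5.24 FPKM in CD44-/- cells, with part of its reads shared. Ccnb1, cyclin B1, stood at 7.75, 2.03 and 2.58 FPKM, and Cdc20, an activator of the anaphase-promoting complex, at 11.1, 2.94 and 3.73 FPKM. DNA replication genes lay on the other side: 20 of 22 were above 0, with a median of 0.36, although 0 passed 2-fold upward. Mcm2, a helicase subunit, stood at 15.3, 30.7 and 25.3 FPKM. The exceptions on that list were Ccnd1, described above, and Rrm2, at 18.3 FPKM in wild-type cells and 14.5 FPKM in CD44-/- cells. Targets of p53 had the lowest median of the pathway lists, -0.82, with 4 of 18 at least 2-fold lower and 0 higher. Cdkn1a, the cell cycle inhibitor p21, stood at 303, 185 and 123.3 FPKM, 2.46-fold lower (2.38 to 2.54), and Gdf15, a stress-induced cytokine, at 88.8, 39.4 and 40.4 FPKM.

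Metabolic and housekeeping lists held few genes past 2-fold, beside 4.21% past it to either side over all genes. All 17 glycolysis genes lay below 0, with 0 past 2-fold and a median of -0.45. Eno1, enolase, stood at 756 FPKM in wild-type cells, 574 FPKM in the TLR4-labelled library and 453 FPKM in CD44-/- cells, 1.67-fold lower (1.64 to 1.70). Lysosomal hydrolases lay the other way, 24 of 25 above 0 with a median of 0.27, beside 54.65% of all genes above 0. Ctsd, cathepsin D, stood at 1105, 816 and 1587 FPKM, and Ctsh, cathepsin H, at 3.78, 2.51 and 11.2 FPKM, the 1 gene of that list past 2-fold. Macrophages are rich in these enzymes, and their part was not tested. Sterol synthesis (18 genes, median 0.11), ribosomal proteins (80 genes, median -0.04) and proteasome subunits (39 genes, median 0.03) had 0 genes past 2-fold. Genes of the ATF4 and unfolded protein responses had a median of 0.13 over 20, with 1 at least 2-fold lower, Chac1, at 5.28, 5.22 and 1.84 FPKM.

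Further genes past 2-fold came from other lists or from none. Of 17 measured S100, annexin and galectin genes 3 were at least 2-fold lower and 1 higher, with a median of -0.26. Over all genes 1.97% were at least 2-fold lower and 2.24% higher. S100a6, a calcium-binding protein of fibroblasts and also among the lower high-level genes, stood at 719 FPKM in wild-type cells, 441 FPKM in the TLR4-labelled library and 306 FPKM in CD44-/- cells. S100a4 stood at 25.02, 7.15 and 9.52 FPKM. Fosl1, the AP-1 subunit Fra-1, stood at 29.9, 25 and 6.38 FPKM and was the 1 immediate early gene of 18 past 2-fold. That count is near the share over all genes, 4.21% past 2-fold to either side. Dusp5, a nuclear phosphatase that acts on ERK, stood at 17.5, 9.89 and 2.66 FPKM, 6.59-fold lower (5.08 to 8.68). Fosl1 and Dusp5 were both lowest in CD44-/-. Several higher genes were picked after their values were seen. Cd36, a scavenger receptor of macrophages and fat cells, stood at 7.93, 1.8 and 67.2 FPKM, 8.48-fold (7.82 to 9.21). Gdf10, a TGF-beta family ligand encoded beside Gdf2 on chromosome 14, stood at 44.7, 59.6 and 185 FPKM, 4.14-fold (3.97 to 4.31). Chchd10, a mitochondrial protein, was higher in both knockout-labelled libraries, at 25.9, 86.7 and 86.2 FPKM.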

How the data were processed

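RNA was sequenced from cultured mouse hepatic stellate cells, 1 library per genotype. The authors deposited, per the file headers, an expected count and an FPKM value per gene. Per the submitters' processing notes they used RSEM with mm10, with no version given, and RSEM divides reads between similar transcripts. The RefSeq table of GRCm38.p6 gave symbols for 17824 of 17870 genes. Missing rows were set to 0, and the lowest listed FPKM was 0.01. The labels do not say how strand was handled.

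From these values the log2 ratio of FPKM + 1 was computed for genes with at least 1 FPKM in either library, and a gene was counted as higher or lower from 2-fold. Folds of named genes are FPKM ratios without the added 1. For each, a 95% Clopper-Pearson interval was taken on the binomial split of rounded expected counts between the libraries, which covers counting error alone. Depth was 24078669, 23659074 and 21460725 expected counts for wild type, the TLR4-labelled library and CD44-/- in turn. An expected count more than 0.005 from a whole number marked shared reads.

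There were 50 gene lists of 854 entries, and 7 more were added after values were seen. Members and lists were chosen with earlier results of these data known. Named genes were Cd44, the 15 highest and 15 lowest ratios (at least 5 FPKM and 50 reads in the higher library), the 12 at each end among high-level genes, the 10 highest levels, up to 5 genes per list with the highest-level macrophage genes, and members of the clusters described. Predicted genes were passed over, and others named were chosen for their roles or after values were seen. A gene that the rule selected is not reported here. Python 3.11.15, numpy 2.4.6, pandas 2.3.3, scipy 1.17.1, R 4.3.3 and, for an alternative scaling, edgeR 4.0.16 were used. The steps were tested on simulated data. The effects of 11 alternatives, 1 of them added after seeing the data, are given below.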

Additional observations from a re-analysis of the deposited data

How the results depend on the processing

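With 1 library per genotype no replicate could be left out. No paired analysis was possible because each genotype has 1 library. With a pseudocount of 0.1 in place of 1, 386 genes were at least 2-fold lower in place of 241, 391 were higher in place of 274, and 2 macrophage genes were lower in place of 1. With a filter at 5 FPKM, 167 genes were higher and 143 lower. With 1 FPKM required in both libraries, a filter added after seeing the data, 143 genes were higher and 142 lower, and 40 macrophage genes were higher. With high level set from 20 FPKM, 23 high-level genes were higher and 68 lower; from 100 FPKM 2 were higher; and with the mean of both libraries 21 were higher. The remaining counts stayed within 1.5 times their values under every alternative run, which also included no filter, median-of-ratios scaling, TMM-scaled CPM, totals without the cell lists and protein-coding genes only. The number of macrophage genes higher ran from 40 to 94, beside 85. Among 2312 values of 304 named genes 211 lay outside the counting interval. No named gene past 2-fold changed direction, and 3 of these 159, Igfbp4, Scarb2 and Apoa2, dropped below 2-fold under another scaling. Of 51 list medians 3 changed sign under a filter: elastic fibre genes, 0.06 to -0.09 with none, myeloid chemoattractant and purine receptors, 0.38 to -0.30 at 5 FPKM and -0.04 with 1 FPKM in both, and BMP-family ligands, -0.13 to 0.01 with the latter. The cause was not tested. The median FPKM ratio was 1.017. Depth limits the lowest genes, since 3 reads are 0.125 CPM in wild type and 0.140 in CD44-/-.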
